A study of Mus musculus with 10 samples.

Results

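The imprinted Dlk1-Dio3 miRNA cluster was examined in RNA of C2C12 cells, a mouse myoblast line. Its members were chosen by name: mouse miRNAs carrying the numbers of the hairpins of this cluster, in either arm, without star strands and without rat assays. The rule used no measured value, though it was set with earlier results of these data known. It gave 56 members among 687 distinct miRNA names in the series. Of the 56, 43 were among the 375 miRNA assays of TaqMan Array A, 5 were among the 209 miRNA assays of Array B, and all 56 were among the 617 mouse miRNA probes of the microarray. Stem-loop qPCR cards give a cycle number, Ct, at which the fluorescence of a well crosses a threshold, so that a lower Ct means more template. A Ct of 40 stood for a well that was undetermined, meaning that it never crossed the threshold.

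All values came from 1 RNA sample of proliferating C2C12 myoblasts, a cell line of C3H origin per the labels, with no treatment and no second biological sample. Array A was run on 4 cards with 500 ng of RNA, from 2 reverse transcription reactions (RT1 and RT2) each measured on day 1 and day 2. Array B was run on 2 cards without and 2 cards with pre-amplification of the cDNA, and 2 microarrays received 8 μg of RNA each. The paper gives a lower RNA input for Array B than for Array A, so detection on them is not at equal input. The spread and every p-value therefore measure technical variation of 1 RNA and not variation between cultures. In RNA of a whole culture, fewer cells expressing a miRNA and less of it in each cell cannot be told apart.

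The Dlk1-Dio3 region is an imprinted domain. The protein genes Dlk1, Rtl1 and Dio3 are expressed from the paternal chromosome, and the long noncoding RNAs Meg3, Rian and Mirg, together with the miRNAs and small nucleolar RNAs of the domain, from the maternal chromosome. The miRNAs are known chiefly from embryo, placenta and brain, and in mouse skeletal muscle the transcription factor Mef2 has been tied to the activity of the locus. In mature miRNAs the seed, bases 2 to 8 from the 5′ end, does most of the pairing with target mRNAs.

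In the RefSeq annotation of mouse build GRCm38.p6, all 56 members were placed on the plus strand of chromosome 12. They spanned 180.1 kb, from the Mir770 hairpin at 109563692 to the end of miR-410 at 109743784. Dlk1 lies before them (chr12:109452485-109463336) and Dio3 after them (chr12:110279230-110281097). The locus falls into a section from miR-770 to miR-882 with 18 members, near Meg3 (chr12:109540996-109571729), Rtl1 (chr12:109564900-109604418) and Rian (chr12:109603945-109661716), and a section from miR-379 to miR-410 with 38 members, which ends within Mirg (chr12:109734981-109749458). Of the 56 target sequences given with the microarray probes, 51 equalled a RefSeq mature sequence. miR-337-3p, miR-337-5p, miR-376c, miR-485 and miR-487b were named only and placed by their hairpins.

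The sequences shown are those of the 6 members that gave a Ct of 35 or less in the mean of a condition, of miR-329, which gave the highest microarray signal of the members, and of miR-376a and miR-411, which resemble detectable members. They are RefSeq mature sequences (GRCm38.p6), with the seed in capitals.
miR-667: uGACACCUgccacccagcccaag
miR-494: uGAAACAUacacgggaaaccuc
miR-379: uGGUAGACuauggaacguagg
miR-376b: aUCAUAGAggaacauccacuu
miR-409-3p: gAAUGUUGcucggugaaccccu
miR-673-5p: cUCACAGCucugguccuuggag
miR-329: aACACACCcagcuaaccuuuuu
miR-376a: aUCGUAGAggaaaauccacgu
miR-411: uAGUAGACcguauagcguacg

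The 56 members carried 56 distinct seeds, so no member shared a seed with another one. Among the other probes of the microarray, the seed of miR-329 was shared with miR-362-3p, that of miR-495 with miR-1192 and that of miR-882 with miR-185. The median GC content was 50% in the members and 45.5% in all 617 probe targets.

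The cards behaved as follows. MammU6, the endogenous small RNA used for normalization, had a Ct of 19.6 to 19.8 on the Array A cards, and the plant control ath-miR159a stayed at 40 on every card. Of the miRNAs that mark skeletal muscle, 4 of 7 assays had a mean Ct of 35 or less: miR-133a, miR-133b and miR-486 on Array A and miR-206 on Array B without pre-amplification. miR-1 (mean Ct 35.4), miR-499 (35.4) and miR-208b (39.0) were above that limit. Not counted among the 7 were the Array A assays miR-208 (36.4) and rno-miR-1, a rat-named assay (31.3). Of the other lists, 2 of 4 blood assays, 1 of 4 neural, 1 of 2 endothelial and 1 of 3 pancreatic assays were at 35 or less, and none of 7 epithelial, 1 liver and 15 embryonic stem cell assays. The lowest of them were miR-9 (28.9) and miR-142-3p (30.6), and no source of them was tested.

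Few miRNAs of the cluster were detected in C2C12 RNA on Array A. Of the 43 members, 5 had a mean Ct of 35 or less, the limit for a detectable miRNA, against 182 of all 375 assays (48.5%). All 5 lay in the section from miR-379 to miR-410, where 30 members had an assay. None of the 13 members assayed from the section of miR-770 to miR-882 was detectable. The difference between the sections was not tested. A Ct of 35 or less on at least 1 card was found for 9 members, against 60.8% of all assays. At the other end, 28 members were undetermined on all 4 cards, compared with 29.9% of all assays. Counted by wells, 138 of 172 member wells (80.2%) were undetermined, and 617 of 1500 wells of all miRNAs (41.1%).

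**Figure D1:**
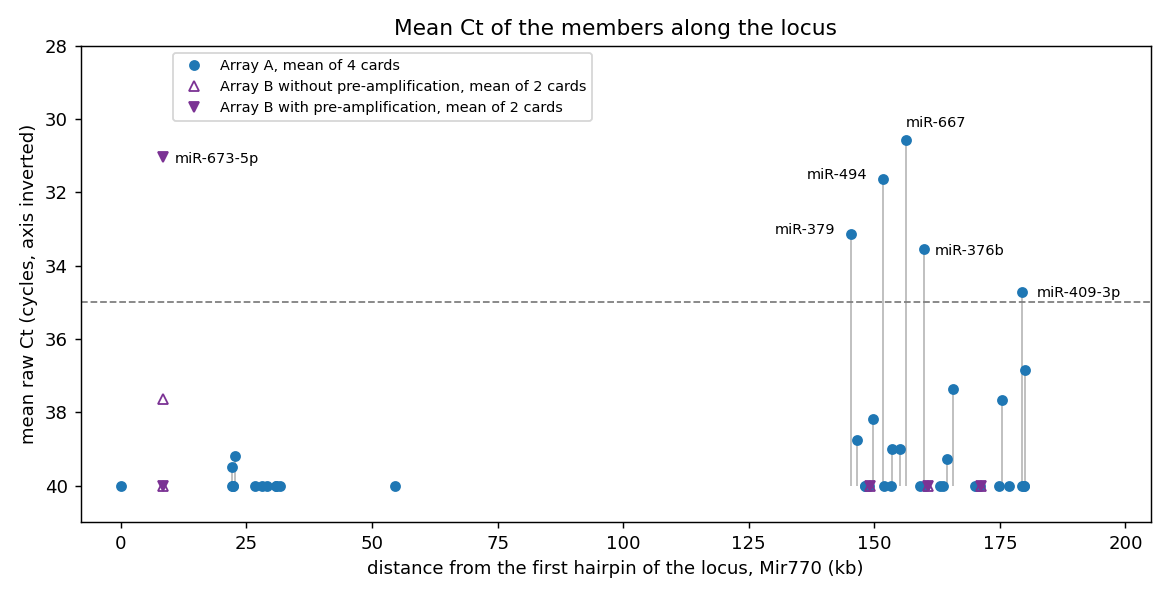
Mean raw Ct (cycles, axis inverted) of each member against its distance from the Mir770 hairpin (kb), for Array A (4 cards) and Array B without and with pre-amplification (2 cards each); the dashed line marks a Ct of 35. The 5 members past the line on Array A lie 145 to 180 kb from Mir770, and miR-673-5p passes it only on the pre-amplified cards. The section from miR-379 to miR-410 holds 30 of the 43 members assayed on Array A.

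miR-667 had the lowest mean Ct of the members on Array A, with a Ct of 30.921 and 30.213 in RT1 on days 1 and 2 and of 30.071 and 31.048 in RT2. Its mean was 30.6 ± 0.493 (SD, n = 4 cards), which placed it 96th among the 182 detectable miRNAs of Array A. It was read within a range of 1 cycle on all cards, and the values of the reactions overlapped. Its mature sequence is annotated at chr12:109720061-109720083.

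miR-494 gave 31.352 and 31.777 in RT1 and 31.388 and 31.973 in RT2. The mean of 31.6 ± 0.303 was the 117th lowest. Both day 1 values were below both day 2 values. The miRNA lies at chr12:109715367-109715388, in the same section as miR-667.

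miR-379, which gives its name to the miR-379/miR-410 cluster, gave 33.088 and 33.866 in RT1 and 31.529 and 34.019 in RT2. The RT2 day 1 card was the low one, and the mean was 33.1 ± 1.14, 148th among the detectable miRNAs. The member downstream of it, miR-411, read 35.035 on the RT2 day 1 card and was undetermined on the other 3. The mature sequences of miR-379 and miR-411 have 21 bases each and differ at 7 of them. Counted from the 5′ end, with miR-379 first, the differences are G2A, U9C, A10G, G12A, G13U, A15G and G20C, of which G2A falls in the seed.

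miR-376b gave 33.352 and 33.202 in RT1 and 33.709 and 33.949 in RT2. Its mean was 33.6 ± 0.339, the 160th lowest. Its paralog miR-376a, known as a target of adenosine-to-inosine editing in mouse and human brain, was undetermined on all 4 cards, and so was miR-376c. The sequence of miR-376b differs from that of miR-376a at 3 of 21 positions, A4G, C13A and U20G, with A4G in the seed.

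miR-409-3p gave 34.671 and 33.787 in RT1 and 34.332 and 36.075 in RT2. It was above 35 on RT2 day 2, and its mean of 34.7 ± 0.976 ranked 175th. Without the RT1 day 2 card its mean rose past 35, leaving 4 detectable members. The other arm of the same hairpin, miR-409-5p, was undetermined on every card. Of the 6 hairpins with both arms on Array A (miR-337, miR-369, miR-380, miR-409, miR-434 and miR-540), miR-409 was the only one with an arm at 35 or less on any card.

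Another 4 members crossed the limit on single cards with a mean above 35. miR-410, the last member of the cluster, read 36.961 and 35.619 in RT1 and 34.803 and 40 in RT2. miR-496 read 35.73 and 40 in RT1 and 34.91 and 40 in RT2, so that both day 1 cards and neither day 2 card gave a product. miR-544 did the opposite, with 40 and 33.66 in RT1 and 40 and 35.786 in RT2. miR-329 read 32.754 on RT1 day 1 and 40 on the other cards, the widest range of any member.

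A further 6 members, miR-337-5p, miR-411, miR-495, miR-539, miR-543 and miR-665, gave a product on 1 card each, at a Ct between 35.035 and 38. In the plot of the members by card, these wells and that of miR-329 stand alone above 3 undetermined ones. The 28 members that stayed at 40 included miR-127, which lies antisense to Rtl1 and directs cleavage of its mRNA, miR-134, known as a regulator of Limk1 in neuronal dendrites, and miR-431, described as a regulator of Pax7 in mouse muscle progenitors.

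**Figure D2:**
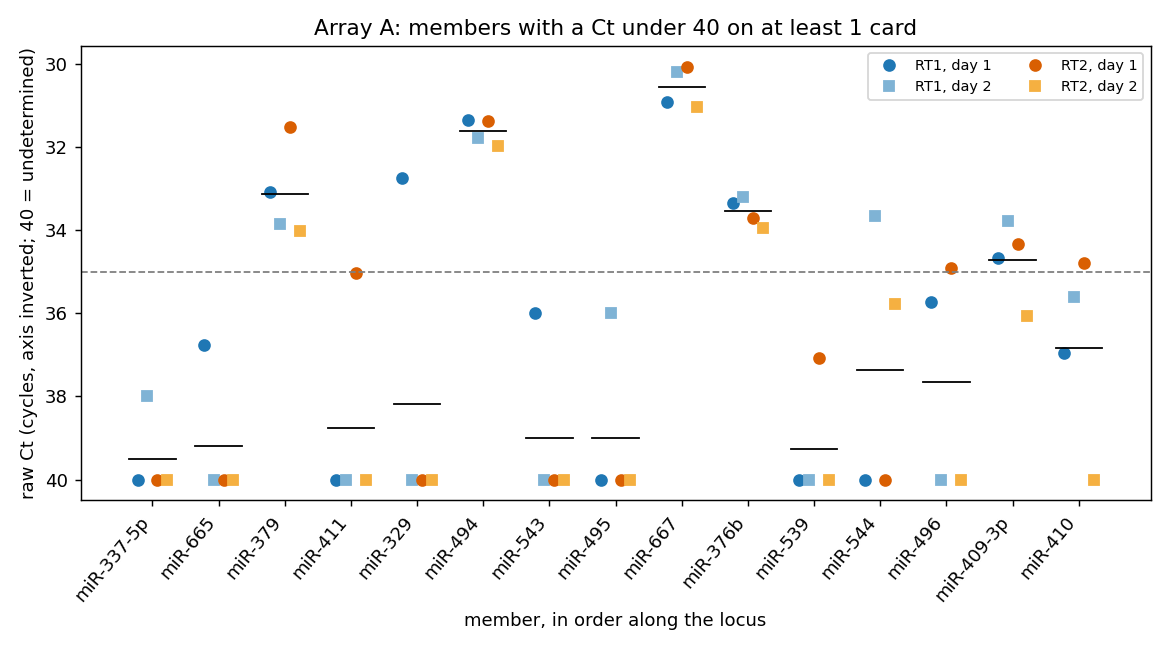
Raw Ct (cycles, axis inverted, 40 = undetermined) of the 15 members with at least 1 well under 40 on Array A, in order along the locus; circles are day 1, squares day 2, blue RT1, orange RT2, short lines the mean of 4 cards, and the dashed line a Ct of 35. miR-667, miR-494, miR-379 and miR-376b are at 35 or less on all 4 cards, and 7 members have a single well under 40.

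The number of members at 35 or less on a card was 6 on RT1 day 1, 6 on RT1 day 2, 7 on RT2 day 1 and 4 on RT2 day 2. Over all assays these counts were 195, 188, 191 and 191. RT2 day 2 also had the most undetermined wells, 37 of 43 members and 164 of 375 assays, against 33 or 34 members and 150 to 152 assays on the other cards. On every card 4 members were at 35 or less, compared with 158 of 375 assays (42.1%).

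The differences between the reverse transcription reactions were computed on ΔCt, the Ct minus that of MammU6 on the same card, with limma over the 182 detectable miRNAs. None of the 5 members passed an adjusted p of 0.05, against 4 of 182 miRNAs (2.20%), namely miR-197, miR-465a-3p, miR-708 and miR-741; with the day as a replicate block 1 of the 182 passed. miR-376b was 0.63 cycles higher in RT2 (SE 0.214, limma adjusted p = 0.718). miR-409-3p was 1.05 cycles higher in RT2 (SE 0.803, limma adjusted p = 0.865), and miR-379 was lower there, at -0.62 cycles (SE 0.995, limma adjusted p = 0.871). The remaining differences were 0.19 for miR-494 (SE 0.283) and 0.07 for miR-667 (SE 0.533).

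Between the days none of the 182 miRNAs (0.00%) and hence no member passed in limma, and 8 had an unadjusted p under 0.05, none of them a member. The largest member difference was that of miR-379, 1.55 cycles higher on day 2 (SE 0.629, limma adjusted p = 0.994). miR-494 was 0.42 cycles higher on day 2 (SE 0.222, limma adjusted p = 0.994). The differences of miR-409-3p (0.34, SE 0.948), miR-667 (0.048, SE 0.531) and miR-376b (-0.041, SE 0.406) were smaller than their errors. With 2 cards a group, differences of the size seen here were not separable from the spread of the cards.

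The spread of the members was set against that of other assays at their level. In the 93 assays with a mean Ct above 30 and up to 35, the median SD over the 4 cards was 0.508, and the 5 members had a median SD of 0.493, with 2 of them (miR-379 and miR-409-3p) above 0.508.

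**Figure D3:**
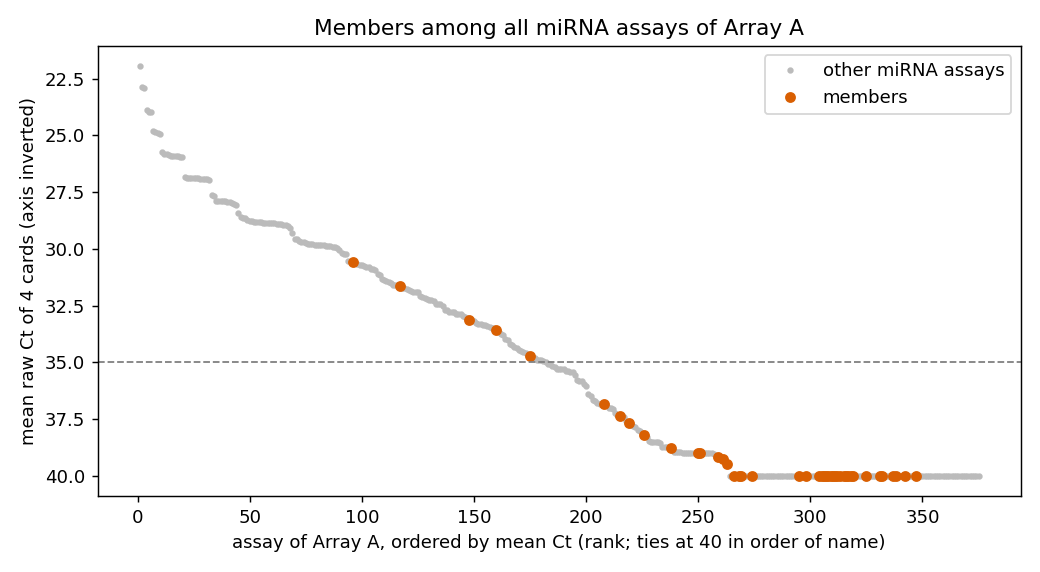
Mean raw Ct of the 4 Array A cards (axis inverted) for all 375 miRNA assays in order of their mean, with the 43 members in orange; the dashed line marks a Ct of 35. The first member, miR-667, stands 96th, and 28 members sit at 40.

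Array B held 5 members. Without pre-amplification none had a mean Ct of 35 or less (28.7% of all 209 assays did), and with pre-amplification 1 did (52.2% of all assays). That member was miR-673-5p, at 36.634 and 38.645 on the cards without pre-amplification and at 31.429 and 30.653 on those with it. The conditions did not overlap, and the means were 37.6 ± 1.42 and 31.0 ± 0.549 (SD, n = 2 cards each). The Ct of MammU6 also fell with pre-amplification, from 21.714 and 21.673 to 13.803 and 14.012. On the ΔCt scale miR-673-5p was 1.19 cycles higher with pre-amplification (SE 0.872, limma adjusted p = 0.459), in a fit limited to the 89 miRNAs with a Ct under 40 on every card. In that fit 13 of the 89 differed. miR-673-5p was not among the 60 miRNAs detectable without pre-amplification, of which 15 differed in limma (25.0%). With the card number as a replicate block 4 of the 60 differed.

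In the section from miR-770 to miR-882, miR-673-5p alone had a mean Ct of 35 or less in a condition, and only with pre-amplification. The 13 members of that section on Array A were not measured with pre-amplification, so they cannot be compared with it there. The mature sequence of miR-673-5p lies at chr12:109572004-109572025, 8.31 kb from the start of Mir770. The other arm of the hairpin, miR-673-3p, was undetermined on all 4 cards with or without pre-amplification. The same held for miR-300, miR-485 and miR-758.

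Star strands of the cluster, the arms named as the minor product of a hairpin, were measured by qPCR on Array B only, and by probes on the microarrays. Of 16 such assays, 13 for mouse and 3 for rat, 14 were at 40 on all 4 cards. The same count was not made over all 209 assays of Array B, so the 14 cannot be read as particular to the cluster. miR-300* read 33.94 on 1 pre-amplified card and 40 on the other, and miR-411* read 38.125 on the other pre-amplified card alone. The 6 rat assays of the cluster on Array A (miR-377, miR-381, miR-409-5p, miR-543, miR-673 and miR-758) were undetermined on all cards, as were 29.9% of all 375 assays.

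On the microarrays a probe was detectable at a background-subtracted signal of 32 or more on both arrays. This held for 3 of the 56 members, miR-329, miR-667 and miR-540-5p, against 137 of 617 probes (22.2%). The median signal of the members was 12.7 on array 1 and 16.6 on array 2, and that of all probes 16.4 and 20.6. Below 32 on both arrays were 51 of 56 members (91.1%) and 443 of 617 probes (71.8%).

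miR-329 had the strongest signal, with 5 spots between 469.59 and 699.55 on array 1 and 5 spots between 2222.92 and 2529.53 on array 2. The means were 548 ± 90.9 and 2357 ± 135 (SD over 5 spots of 1 array), which ranked 43rd and 22nd of the 617 probes. The arrays thus differed 4.30-fold (2.11 on the log2 scale), and no spot of array 1 came near those of array 2. Of the 137 detectable probes 13 differed 2-fold or more (9.49%), and the 1 member among them was miR-329, the third by size of the difference. Each array is 1 measurement, so this difference has no replicate check.

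On the qPCR-array, by contrast, miR-329 was undetermined on 3 of 4 cards. miR-362-3p, an X-linked miRNA with the seed of miR-329, showed the reverse: its Ct was 32.978 and 32.865 in RT1 and 34.626 and 32.949 in RT2, and its signal was 7.64 and 8.15 on the arrays, below the limit. The 7-base run of the miR-329 seed, ACACACC, occurred in the targets of 6 other probes, at any position. All 6 were higher on array 2, as were 428 of all 617 probes (69.4%), with a median log2 difference of 1.56 against 0.29 over all 617 probes, and 4 of the 6 were 2-fold higher or more, compared with 69 of 617 probes (11.2%). Of the 6, miR-574-3p and miR-467f were detectable, at 40.2 and 134.1 and at 54.0 and 220 on arrays 1 and 2. miR-197, miR-532-3p and miR-667 share a run of 8 bases with miR-329 that does not hold the whole seed. Their log2 differences between the arrays were 0.34, 0.094 and -0.11. Larger differences than that of miR-329 were seen in detectable probes outside the 6, miR-374 (32.4 and 183.1) and miR-466f-3p (48.4 and 246.9 on arrays 1 and 2). The ACACACC run was looked for after the values of miR-329 were seen, and its part in the signal was not tested. The longest run that miR-329 shares with miR-574-3p and with miR-362-3p is in capitals here.
miR-574-3p: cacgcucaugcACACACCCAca
miR-362-3p: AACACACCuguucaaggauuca

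**Figure D4:**
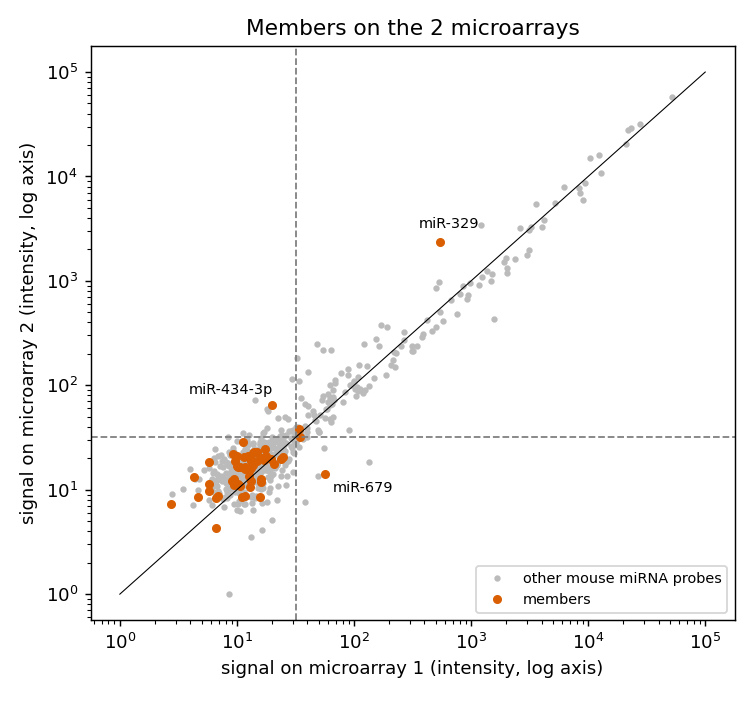
Background-subtracted signal (intensity, log axes) of each mouse miRNA probe on microarray 1 and microarray 2, as the mean of 5 spots, with the 56 members in orange; dashed lines mark 32 and the solid line equal signals. miR-329 stands apart from the line at 548 and 2357, and 51 members lie below 32 on both arrays.

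The other detectable members sat at the limit. miR-667 had 29.16 to 43.2 over its spots on array 1 and 22.34 to 41.18 on array 2, with means of 34.7 ± 5.48 and 32.2 ± 7.66. miR-540-5p, at chr12:109586085-109586107 in the section before miR-882, had means of 34.1 ± 16.0 and 38.2 ± 13.7, with single spots down to 16.47. Its Array A assay was undetermined on all cards. Both had at least 3 spots above 3 SD of the empty spots on array 1 (28.4) but fewer on array 2 (43.5), and miR-329 alone among the members met that alternative limit. This SD was estimated from the median absolute deviation of the scanner densities of the empty spots, and background-subtracted signals were set against it.

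A further 2 members passed 32 on a single array. miR-434-3p had 19.9 ± 4.64 on array 1 and 64.3 ± 20.5 on array 2, and its spots did not overlap between the arrays. miR-679 had a mean of 57.0 on array 1 that rested on 1 spot of 221.54, the others lying between 4.87 and 24.19, and of 14.2 on array 2. Both were at 40 on all cards of Array A. Of the members detectable on Array A, miR-667 alone was detectable on the microarrays, so no correlation between the platforms could be given over the members.

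Some miRNAs of the same 180.1 kb were not included by the name rule. Of 7 such miRNAs on the microarrays 1 was detectable, miR-1193 at 40.5 and 51.9, and of 13 star strands 2 were, miR-299* (37.9 and 40.6) and miR-382* (38.2 and 66.6). Of the 4 that had an assay on Array A, miR-453, miR-654-3p and miR-654-5p were at 40 on all cards, and miR-493 read 33.962 on RT2 day 1 and 40 on the others.

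miR-342 and miR-345 are encoded on chromosome 12 upstream of Dlk1. They were looked up after the values of the cluster were known. miR-342-3p, 905 kb before Mir770, had a Ct of 28.9 ± 0.0826 (SD, n = 4 cards) on Array A, lower than any member, and miR-345-5p, 727 kb before it, had 33.0 ± 0.221. miR-345-3p, from the same hairpin, read 33.257 on RT1 day 2, 35.983 on RT2 day 1 and 40 on the other cards.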

How the data were processed

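Aliquots of 1 C2C12 RNA sample were measured on 8 qPCR-array cards and 2 microarrays. The baseline of each well was set automatically and 1 threshold served all wells, per the methods; the authors deposited Ct both raw and relative to MammU6. The raw values were used, and ΔCt was recomputed. The deposited microarray values are background-subtracted intensity values per spot, set to 1 where less was left, and 5 spots of a probe were averaged here. No loess step, which the methods name, was visible in them.

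Reactions, days and pre-amplification were compared with limma 3.58.1 (R 4.3.3) on detectable miRNAs (mean Ct up to 35), with Benjamini-Hochberg adjustment over all of them, after the code was checked on simulated data. The microarrays were compared by the log2 difference of mean signals. The labels give the day and reaction of each card, which pair the cards. The deviations from the group means correlated at 0.026 (reactions by day), 0.325 (days by reaction) and -0.013 (Array B, where only a number is shared). Members with a mean Ct of 35 or less in a condition, at 35 or less on a card, or detectable on both microarrays were described singly, the others by counts. Alternatives were other limits on Ct and signal, other normalizations, a replicate block, the methods' t-test and leaving out each card. Members, lists and rules were chosen with earlier results of these data known. Sequences and positions are from RefSeq (GRCm38.p6); the build behind the assays is not given in the sources used here. Python 3.11.15, pandas 2.3.3 and numpy 2.4.6 were used.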

Additional observations from a re-analysis of the deposited data

Results flagged for a closer look

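In 7 members of the cluster a single Array A card stood apart from the other 3, which were all undetermined, by Dixon's ratio over the 4 cards. The Ct of that card was 32.754 for miR-329, 36.762 for miR-665 and 35.994 for miR-543 on RT1 day 1, 38 for miR-337-5p and 36.002 for miR-495 on RT1 day 2, and 35.035 for miR-411 and 37.067 for miR-539 on RT2 day 1. No such single well fell on RT2 day 2. Of the 43 members, 15 had cards that were not all equal. The flag was not counted over all 375 miRNA assays of Array A, so it cannot be read as particular to the cluster. The ratio marks about 1 in 20 groups by chance where values are continuous, and with 3 wells at 40 it is at its highest by construction.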

How the results depend on the processing

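No member was called between reactions or between days under any setting run. With pre-amplification no member entered the fit on the 60 miRNAs, so its settings say nothing of the members. miR-673-5p, the single member tested, was not called among the 89 miRNAs with a Ct under 40 on every card, of which 13 were called. Detectable members on Array A numbered 2 at a mean Ct of 32 or less, 8 at 38 or less and 4 to 5 with 1 card left out. The counts of all 375 assays at these other limits are not given here, so the member counts have no background beside them. On Array B without pre-amplification 1 member, miR-673-5p, passed a limit of 38. On the microarrays 1 member passed a signal of 100 (75 of 617 probes did) and 39 passed 10 (484 of 617 probes did). At least 3 spots above 3 SD of the empty spots on both arrays were found for 1 member and for 122 of 617 probes. Over all miRNAs, the count of 4 between reactions became 2 with raw Ct, 0 with a Ct of 35 or less on every card, 1 with the day as a replicate block, 2 by the methods' t-test at p under 0.01, and 0 to 1 with 1 card left out; fewer miRNAs or fewer cards entered some of these fits. Between days it became 1 by the methods' t-test and 0 to 1 with 1 card left out. With pre-amplification the 15 calls became 26 with other endogenous controls, 4 with the replicate block, 3 by the methods' t-test and 8 to 32 with 1 card left out. The causes were not tested.

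Uncalled differences of members changed sign under some settings. Between reactions, miR-494 was at -0.011 with other controls, and miR-667 at -0.0075 with raw Ct, -0.13 with other controls and -0.038 with the card mean. Between days, miR-376b was at 0.045 with raw Ct. With 1 card left out, the reaction difference ranged from -1.88 to 0.63 for miR-379, from -0.11 to 0.50 for miR-494 and from -0.43 to 0.57 for miR-667, and the day difference from -0.51 to 0.43 for miR-376b, from -0.90 to 0.53 for miR-409-3p and from -0.46 to 0.56 for miR-667. The difference of miR-329 between the microarrays was 2.24 after quantile normalization and 2.28 after normexp and loess.

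The correlation of the platforms over members was not run, because 1 member was detectable on both. A signal of 32 lies below 3 SD of the empty spots on array 2 (43.5) and above it on array 1 (28.4). A member outside the counts was not detectable at this input on that platform, and whether its assay or probe works was not tested.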
